A study of Saccharomyces cerevisiae with 10 samples.

Results

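Chromosome XII of Saccharomyces cerevisiae carries the ribosomal DNA (rDNA), a tandem array of the ribosomal RNA genes. The stretch left of it was read here through all SNPs on that chromosome whose position in the deposited probe names lies left of the edge of the repeats in the S288C reference, called the boundary below. The rule used position alone and no measured value, but it was chosen with earlier results of these data known. That gave 391 of the 13461 SNPs with probes for both alleles, against 853 SNPs right of the repeats. The 391 SNPs ran from position 17902 to 447537, a span of 429.6 kb that ends 3.46 kb before the boundary, and the map then had no SNP for 43.2 kb, up to 490725. Positions are those of the probe names, whose genome build is not given in the sources used here, and no gene was placed on them.

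Each array compared genomic DNA of 1 diploid isolate (Cy5) with DNA of the control diploid JSC24 (Cy3). All 10 isolates are labelled as diploids of W303-1A crossed with YJM789 and were grown in YPD medium. The groups were 4 zygotes of the cross of MD893-1 with LSY3454-2, 2 zygotes of the cross of MD893-2 with LSY3454-2, a pair of isolates (A and B) named HK10 and another pair named HK12. The labels give no genotype for the crossed parents, for HK10 or for HK12. Whether the A and B isolates of a name came from separate cultures is not stated. Each test was therefore run over the isolates and again with 1 mean per HK name, and the first measures only the spread between these isolates, which may be technical. The series title gives its subject as genome instability from cleavage by RNase H2, an enzyme that removes ribonucleotides from DNA.

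A diploid hybrid of diverged strains is heterozygous at many single bases. Mitotic recombination between homologs can leave a stretch with only 1 parent's allele, called loss of heterozygosity (LOH). A crossover can make a chromosome homozygous from the exchange to its end, and gene conversion can make a short internal stretch homozygous. The rDNA lies on the right arm of chromosome XII, so the centromere and the whole left arm lie within the stretch described here. The repeats are known as a recombination hotspot with a variable number of copies, and the array had no SNP within them.

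For each SNP, d is the difference between the mean log2 ratios of its alleles, S minus Y, shifted so that its median over all SNPs of the array is 0. The shift was 0.13 in MD893-2 zygote 1 and between -0.02 and 0.02 on the other 9 arrays, and the values of single probes and alleles below do not carry it. A SNP with both alleles has d near 0, a SNP with only the S allele has a strongly positive d, and a SNP with only the Y allele a strongly negative d. The labels do not define the letters S and Y, and they are used here as names. The measure s is the mean log2 ratio over both alleles, set to 0 at each array's heterozygous SNPs genome-wide.

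The SNPs left of the rDNA were spread unevenly. Their median spacing was 421.5 bp, against 300.5 bp on the right side, and the density was 9.1 SNPs per 10 kb against 15 there. The widest gaps lay between 175539 and 191618 (16.1 kb), between 367757 and 382549 (14.8 kb) and between 383873 and 398314 (14.4 kb). The number of these SNPs with both alleles measured was 387, 390, 382 and 375 in MD893-1 zygotes 1 to 4 and 360 and 362 in MD893-2 zygotes 1 and 2. For the A and B isolates it was 379 and 375 with HK10 and 371 and 376 with HK12, and 346 SNPs were measured on all 10 arrays. The share of the 1561 probes here without a value was 0.512% to 9.74% in the zygotes and 4.8% to 6.21% in the HK isolates. Both MD893-2 zygotes lay above the HK arrays, at 9.74% and 9.67%, and the 4 MD893-1 zygotes lay below them. Another 8 positions carried probes for 1 allele and gave no d.

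In the 6 zygotes the whole stretch was heterozygous, whereas each HK isolate had lost 1 allele over part of it. The state model called 80 of 379 SNPs homozygous in HK10 A (21.1%) and 80 of 375 in HK10 B (21.3%). It called 7 of 371 in HK12 A (1.89%) and 8 of 376 in HK12 B (2.13%). Over all SNPs of the 16 chromosomes the called share was 17.3% for HK10 A and 13.4% for HK10 B. It was 7.43% for HK12 A, 12.5% for HK12 B and 0.108% for the 6 zygotes together. The share left of the rDNA was thus above the isolate's genome-wide share in HK10 and below it in HK12. By length, homozygous stretches covered 128.7 kb in HK10 A and in HK10 B, which is 30% of the span, and HK12 had 3.62 kb (A) and 3.93 kb (B).

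The zygotes had 0 homozygous SNPs of 360 to 390 measured. The HK mean was 11.6% ± 11.1 (SD, n = 4), and its difference from the zygotes was 11.6 percentage points (exact two-sided permutation p = 0.00952, the smallest that 4 against 6 isolates allow). Taken by name, 2 against 6, the same difference had an exact permutation p of 0.0714 (two-sided), and no lower p is possible there. The HK values fell into 2 levels by name, so their mean describes neither. The share in HK12 rests on 1 tract of 7 and 8 SNPs. With a minimum of 10 SNPs per tract HK12 had 0% and the difference was 9.42 (exact two-sided permutation p = 0.267 over isolates and 0.5 over names).

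**Figure D1:**
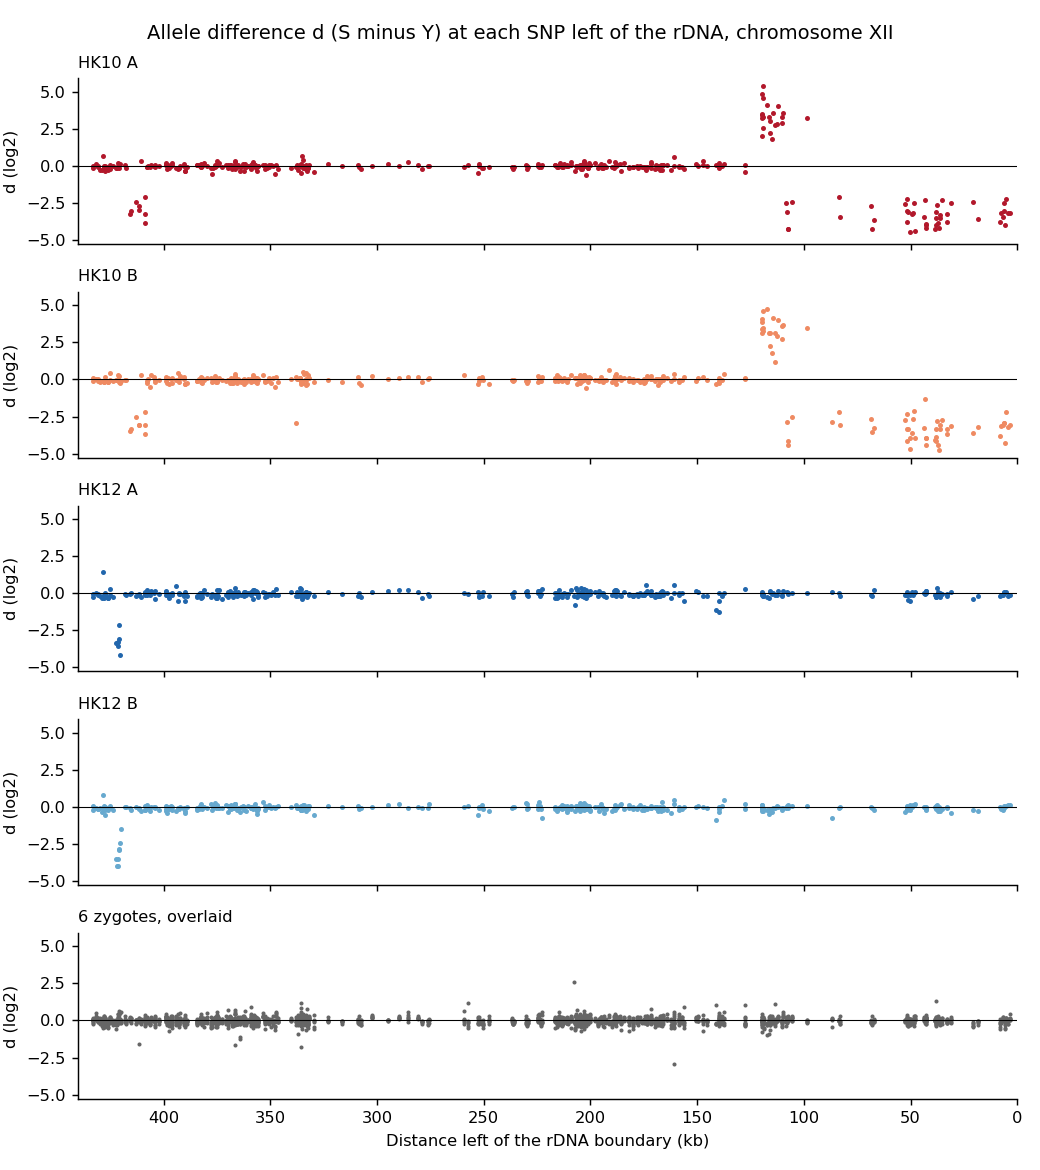
Allele difference d (S minus Y, log2) at each SNP against its distance from the rDNA boundary, with 1 panel for each HK isolate and all 6 zygotes overlaid in the last. HK10 A and B leave 0 near 415 kb and for good at 120 kb, first upwards and then downwards, HK12 A and B have a run off 0 near 422 kb, and elsewhere in these isolates and in the zygotes d stays near 0 apart from scattered single SNPs.

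HK10 A and HK10 B showed the same order of allele runs. From the left end of the map they were heterozygous, then Y homozygous, heterozygous again over most of the span, then S homozygous, and from there Y homozygous up to the rDNA. Read SNP by SNP, with d above 1.5 taken as S, below -1.5 as Y and within 1 of 0 as both alleles, HK10 A gave 9 runs and HK10 B gave 11. The extra pair of switches in HK10 B was due to the SNP at 113131, where d was -2.91 and no other array had a value. HK12 A and HK12 B each gave 3 runs. The zygotes gave 1 run each in MD893-1 zygotes 1, 3 and 4, 3 runs in MD893-1 zygote 2 and 5 in both MD893-2 zygotes. In the zygotes every run off 0 was a single SNP, so the number of runs alone did not separate HK12 from them.

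The first Y run of HK10 spanned 9 SNPs from 35225 to 42230, 416 kb from the rDNA at its left edge. Its median d was -2.94 in HK10 A and -3.03 in HK10 B. Over the same 9 SNPs the median d was 0.01 to 0.05 in the zygotes and -0.11 to -0.05 in the HK12 isolates. The run was called from these same HK10 values, so the contrast is a description and no test. The flanking SNPs at 33099 and 43295 were heterozygous in both HK10 isolates, with d of -0.17 and -0.02 at 33099 and of -0.08 and -0.14 at 43295. The left switch therefore lay within 2.13 kb and the right switch within 1.06 kb, identically in A and B.

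Inside that Y run, 1 SNP read as heterozygous in both isolates. At 40555, d was 0.35 in HK10 A and 0.27 in HK10 B, while d was below -2 at the other 8 SNPs of the run in both. The S probes there stood at -0.09 and 0.58 in HK10 A and at -0.11 and 0.72 in HK10 B, so the S signal was not lost on either strand. The zygotes had d of -0.24 to 0.10 there, with a median of -0.04. The s at 40555 was 0.08 in HK10 A and 0.19 in HK10 B, above their medians of -0.20 and -0.19 at the heterozygous SNPs of the stretch. Whether the probes of this SNP tell the alleles apart was not tested, so the reading of both alleles is not established. The nearest measured SNPs, at 39569 and 42070, lay 0.986 kb and 1.51 kb away and carried only Y.

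The S run of HK10 lay from 331220 to 340994, 120 kb to 110 kb from the rDNA. It held 21 measured SNPs in HK10 A and 20 in HK10 B, with a median d of 3.29 and 3.33. The zygotes had medians of -0.15 to 0.02 over these SNPs and the HK12 isolates of -0.11 to -0.07. This run too was called from the HK10 values set beside them. Its left switch fell in a 7.66 kb interval without SNPs. At 323559, on the near side of that interval, d was 0.07 in HK10 A and 0.06 in HK10 B, and at 331220 it was 3.5 and 3.84.

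From S the chromosome changed to Y with no heterozygous SNP between. At 340994, the last SNP of the S run, d was 3.58 in HK10 A and 3.69 in HK10 B. At 343223 it was -3.13 and -2.87. On both strands the S probes fell from 0.44 and 0.47 at 340994 to -2.44 and -2.91 at 343223 in HK10 A, and the Y probes rose from -3.19 and -3.01 to 0.59 and 0.37. In HK10 A the SNP between them, at 342522, read Y (d of -2.51), which would narrow the switch to 1.53 kb. That reading rests on 1 S probe, at -2.49, and on Y probes that differed, at 0.55 and -0.46. HK10 B had no S value at 342522, so its 2.23 kb interval contains that of HK10 A and no difference in the place of the switch was measured. The Y probe on the F strand did differ at 342522, at 0.55 in HK10 A and -0.74 in HK10 B, and the reason was not tested.

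A second S reading lay inside the Y run. At 352604, 98.4 kb from the rDNA, d was 3.24 in HK10 A and 3.47 in HK10 B, opposite in sign to every other SNP measured from 343223 to 447537 in these isolates. All 4 probes gave this reading. The S probes stood at 0.38 and 0.72 in HK10 A and at 0.37 and 0.93 in HK10 B. The Y probes stood at -1.91 and -3.43 in HK10 A and at -2.18 and -3.42 in HK10 B. In the zygotes d at this SNP was -0.20 to 0.06 with a median of -0.06, and it was 0.04 in HK12 A and 0.03 in HK12 B.

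The SNP at 352604 stands alone on the map. The neighbour on the left, at 345398, lay 7.21 kb away and read Y with d of -2.47 in HK10 A and -2.50 in HK10 B. On the right the neighbour at 364395 was 11.8 kb away and read Y in HK10 B (d of -2.86). HK10 A had no S value at 364395, and the first SNP it measured was at 367662, with d of -2.08. The S reading could thus extend over any part of these gaps, and the minimum of 5 SNPs per tract merged it into the Y run.

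In every tract shared by A and B of HK10, SNPs were counted that read as the opposite allele or as both alleles in both isolates. Left of the rDNA, 1 of 77 tract SNPs read as the opposite allele in both isolates and 1 read as both alleles. Right of the rDNA, 0 of 793 did either. On the other chromosomes 1 of 816 read as the opposite allele, on chromosome X, and 12 read as both alleles, on chromosomes IV, X and XVI. The SNP on chromosome IV, at 1457974, also read as both alleles within a tract of HK12, with d of 0.32 (A) and 0.63 (B). Some of the SNPs counted on chromosomes X and XVI lay close together, so they need not be single exceptions. These counts are descriptions, since neighbouring SNPs share a tract.

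**Figure D2:**
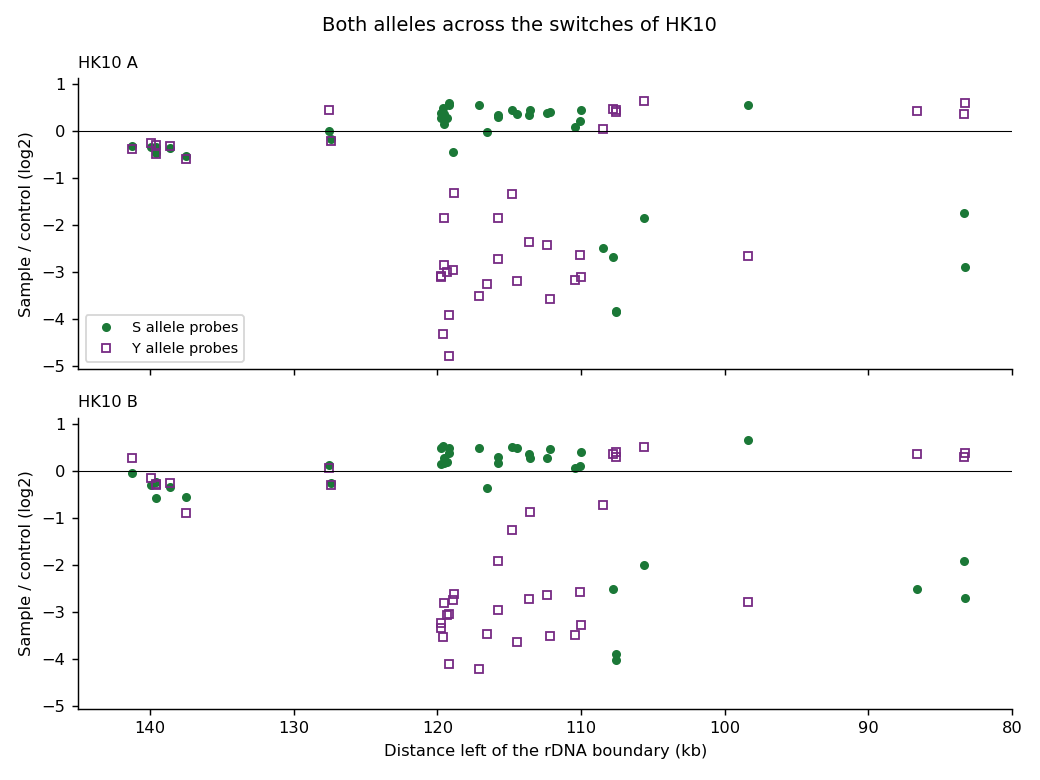
Mean log2 ratio of the S probes (filled circles) and of the Y probes (open squares) at each SNP of HK10 A and HK10 B around the switches, by distance from the rDNA boundary. The Y probes drop at 120 kb and return near 108 kb where the S probes drop, and at 98.4 kb a single SNP again has S high and Y low.

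The last Y run continued through the rDNA gap. Left of it the run held 50 SNPs in HK10 A and 51 in HK10 B, with a median d of -3.24 and -3.29. Right of it the same run held 809 and 811 SNPs with medians of -3.36 and -3.40. At the SNPs that border the gap, 447537 and 490725, d was -3.19 and -3.0 in HK10 A and -3.05 and -2.77 in HK10 B. HK12 A had d of -0.11 and 0.09 at these SNPs, and HK12 B had 0.11 and -0.04. The SNPs on both edges of the rDNA were thus Y homozygous in HK10 and heterozygous in HK12 and in the zygotes. The allele of the repeats themselves was not measured. Over the left part of the run the zygotes had medians of d of -0.02 to 0.02, and 0 of their values lay beyond 1.5.

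Near the left end HK12 had a Y run of its own, which did not overlap that of HK10. It began at 28812 in both isolates and held 7 SNPs to 30315 in HK12 A and 8 SNPs to 30918 in HK12 B. The median d was -3.34 in HK12 A and -3.18 in HK12 B, while HK10 A and B had -0.02 and -0.04 over this stretch and the zygotes -0.05 to 0.08. The left switch lay between 27102 and 28812, where d went from -0.29 to -3.34 in HK12 A and from -0.24 to -3.49 in HK12 B. The right switch lay before 32849, where d was -0.07 and -0.04.

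The different right ends of the HK12 isolates come from a missing value. At 30918 HK12 B had d of -1.53, and HK12 A had no value for the Y probes. The S probe that HK12 A did measure there stood at -1.80, beside -1.9 and -2.0 for the S probes of HK12 B, against -0.23 to 0.26 for the F-strand S probe in the zygotes. Between the Y run of HK12 and that of HK10 lay the SNPs at 32849 and 33099, where d was between -0.17 and 0.08 in all 4 HK isolates. The distance from the last SNP of the HK12 run to the first of the HK10 run, 30918 to 35225, was 4.31 kb.

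**Figure D3:**
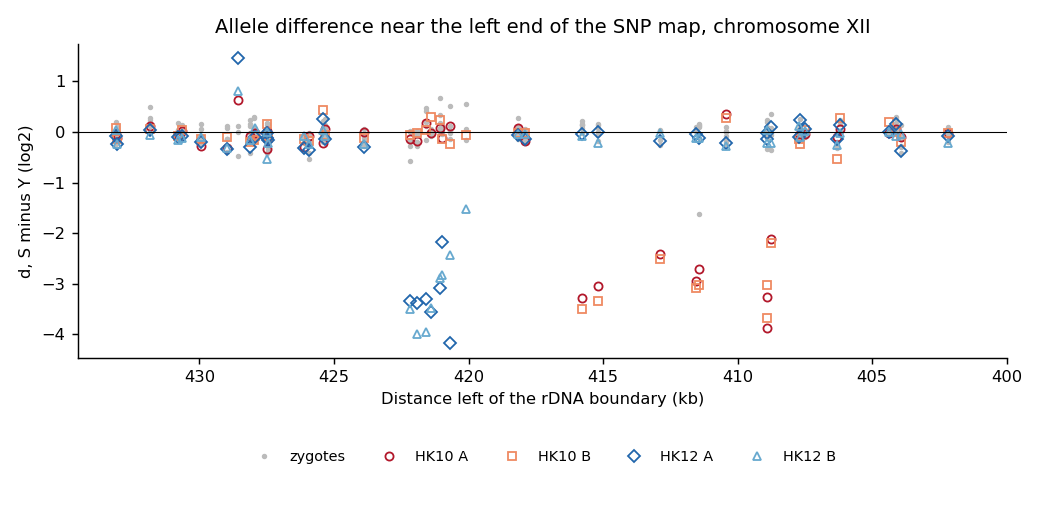
Allele difference d (log2) at the SNPs more than 400 kb left of the rDNA boundary, for each HK isolate (open symbols) and the zygotes (grey). The Y run of HK12 A and B near 421 kb and that of HK10 A and B from 416 to 409 kb do not overlap, and the HK10 run has 1 SNP at 410 kb back at 0.

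In each of the 8 tracts the retained allele rose and the other allele fell to a small share of its heterozygous level. Against the heterozygous SNPs left of the rDNA in the same isolate, the retained allele rose by a median of 0.61, 0.60 and 0.69 on the log2 scale in the first Y, the S and the last Y tract of HK10 A. The rise was 0.63, 0.54 and 0.64 in HK10 B. In the single tract of HK12 it was 0.80 (A) and 0.67 (B). These are 8 readings of 4 distinct tracts, each read in A and B of a name, and the fold ran from 1.46 to 1.74. The spread over the SNPs of a tract was wider, at an SD of 0.15 to 0.50.

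The lost allele changed by -2.21, -2.89 and -2.66 in HK10 A, by -2.38, -2.98 and -2.65 in HK10 B, by -2.43 in HK12 A and by -2.70 in HK12 B. Between 12.7% and 21.6% of the heterozygous probe signal thus remained, as medians over the SNPs of a tract. Whether this remaining signal came from DNA of the lost allele was not tested. The short first Y run of HK10 kept the most signal in both isolates, at 21.6% and 19.2%, and includes the SNP at 40555 that read as heterozygous. The level of d differed by SNP in the same way in both isolates, as the absolute d of HK10 A and B correlated at r = 0.86 over 77 tract SNPs, which share probes and a map position. Wherever both strands gave a d, their signs were equal, at 67 of 67 tract SNPs in HK10 A, 65 of 65 in HK10 B, 5 of 5 in HK12 A and 4 of 4 in HK12 B.

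**Figure D4:**
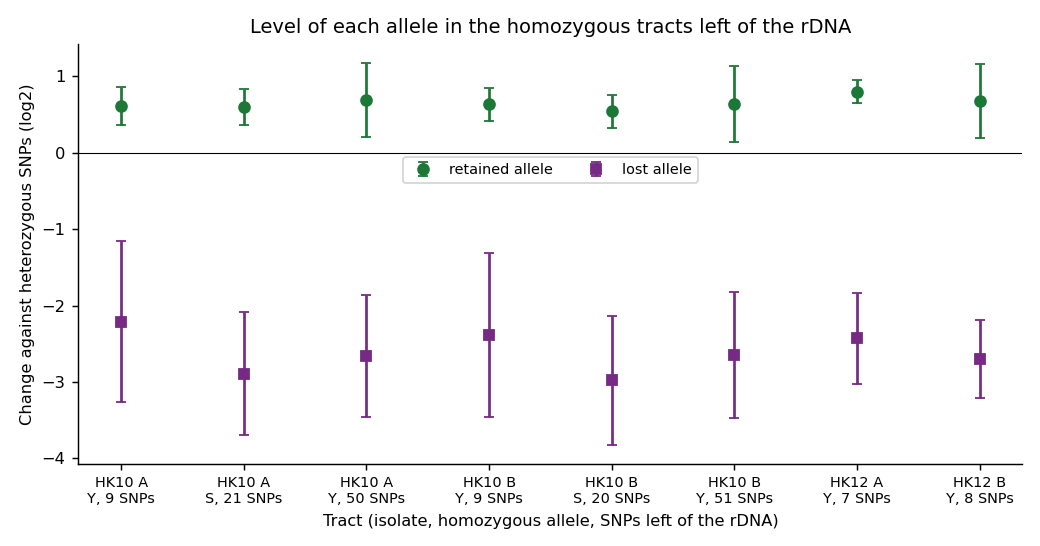
Median change of the retained allele (circles) and of the lost allele (squares) on the log2 scale against heterozygous SNPs left of the rDNA, for each of the 8 tracts, with bars for the SD over the SNPs of the tract. The retained allele lies between 0.54 and 0.80 and the lost allele between -2.98 and -2.21.

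Outside the tracts, d stayed near 0. Its noise, a scaled median absolute deviation, was 0.147 to 0.303 in the zygotes and 0.124 to 0.167 in the HK isolates. Of 3582 heterozygous values, 17 lay beyond 1, at 16 positions, and 11 of the 17 belonged to the MD893-2 zygotes. These were the zygotes with the most probes without a value and the highest noise, 0.192 and 0.303. At 1 of the 16 positions, 309726, it was seen on more than 1 array, with d of 1.06 in MD893-2 zygote 2 and -1.11 in HK12 A, so the signs were opposite. At 39569, inside the first Y run of HK10, MD893-2 zygote 2 had d of -1.61 while the other zygotes lay between -0.13 and 0.16. The SNPs at 84491 (d of -1.66) and 113131 (d of -2.91) were off 0 on the sole array that measured each. No SNP measured on 2 or more arrays was off 0 by more than 1 the same way on all of them.

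The signal over both alleles was lower in the HK isolates than in the zygotes along the whole stretch. The median s of heterozygous SNPs was -0.20 (A) and -0.19 (B) for HK10, and -0.20 for both HK12 isolates. Among the zygotes it ranged from -0.02 to 0.00 with a median of -0.01. The groups did not overlap, and the HK level was 0.87 of that of a heterozygous SNP elsewhere in the genome of the same isolate. The difference was -0.19 (HK mean -0.20 ± 0.004, SD, n = 4, and zygote mean -0.01 ± 0.01, SD, n = 6), with an exact two-sided permutation p = 0.00952 over isolates and p = 0.0714 over names (both the smallest these designs allow).

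The lower signal was not confined to chromosome XII. On chromosome IV, another long chromosome, the HK isolates had a median s of -0.16, -0.15, -0.15 and -0.15 and the zygotes 0.00 to 0.01. Right of the rDNA, where HK10 had no heterozygous SNP, HK12 A stood at -0.19 over 807 SNPs and HK12 B at -0.23 over 138 SNPs. Whether the lower signal came from fewer copies of the stretch or from a difference between arrays in how chromosomes hybridised was not tested. The median d of heterozygous SNPs left of the rDNA was -0.07 to -0.02 in the HK isolates. Left minus right of the rDNA was -0.01 in HK12 A and 0.03 in HK12 B, against -0.02 to -0.003 in the zygotes. The difference between HK12 and the zygotes was 0.03 (exact two-sided permutation p = 0.143 over isolates and 0.286 with 1 mean for HK12). No p under 0.0714 is possible with 2 isolates against 6, so this design could not call a difference of any size. The value rests on single arrays, since it was 0.0488 without HK12 A and 0.0092 without HK12 B, and it was 0.0133 over the SNPs measured on all arrays.

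By distance from the rDNA, the HK isolates lay below the zygotes in each of the 9 bins of 50 kb, without overlap. Bins on other chromosomes were not counted, so this is not shown to be particular to the stretch. On chromosome IV the HK median s was also low, at -0.16 to -0.15. The difference of the means was largest at 50 to 100 kb (-0.23, a bin of 14 SNPs) and smallest at 400 to 450 kb (-0.15). It was -0.17 in the bin nearest the rDNA, 0 to 50 kb. Within 100 kb of the rDNA the HK values come from HK12 alone, since HK10 was homozygous there. At 100 to 150 kb the 4 HK isolates averaged -0.26 (-0.31 to -0.23), the lowest bin mean of the 9, and there the zygotes also had their lowest bin mean, -0.06 (-0.15 to -0.01). HK10 A and B had fewer than 20 heterozygous SNPs in that bin.

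The slope of s with distance was 0.0316 (A) and 0.0317 (B) per 100 kb for HK10, and 0.0142 (A) and 0.0103 (B) for HK12. In the zygotes it ran from -0.001 to 0.0155 with a median of 0.00468, so the groups overlapped. The difference of 0.0162 gave an exact two-sided permutation p = 0.0286 over isolates and p = 0.143 over names. HK10 contributed SNPs only from 127 kb outwards. In HK12 the bin at 0 to 50 kb stood at -0.160 (A) and -0.171 (B), beside -0.147 and -0.167 at 400 to 450 kb. The lowest bins of HK12 began at 150 kb in A and at 100 kb in B. A positive slope thus did not mean a steady fall of s towards the rDNA. Over the stretch heterozygous in all isolates, 43295 to 323559, the difference was 0.00898 (exact two-sided permutation p = 0.267), and it was 0.013 without HK10 A or without HK10 B (p = 0.0714 each).

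**Figure D5:**
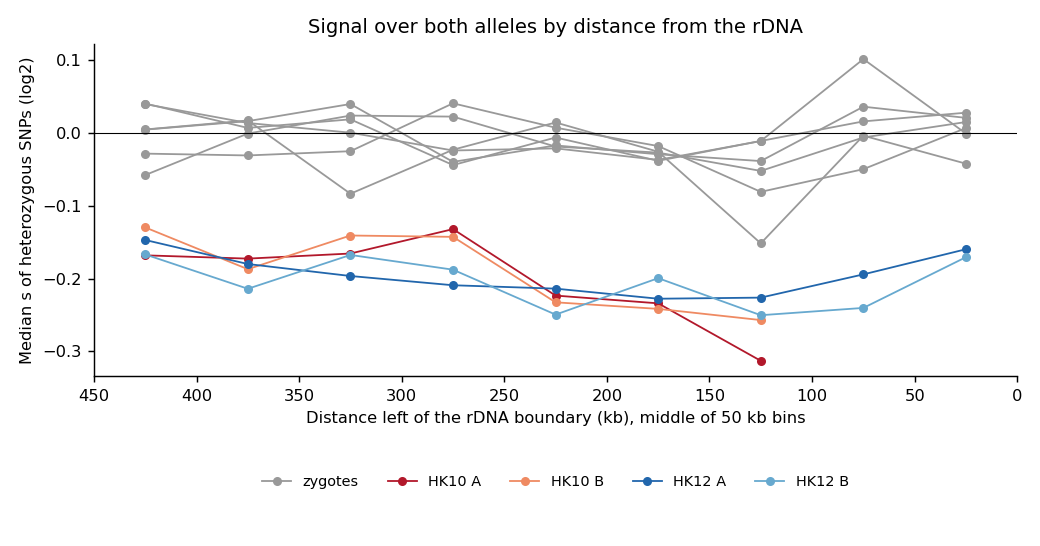
Median s (log2, mean of both alleles) of heterozygous SNPs in 50 kb bins against distance from the rDNA boundary, 1 line per isolate. The HK isolates lie below every zygote in all 9 bins, and the lines of HK10 A and B end at the bin from 100 to 150 kb because these isolates were homozygous nearer the rDNA.

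Per SNP, limma compared s between the 2 HK names (A and B averaged) and the 6 zygotes at the 11723 SNPs measured on all arrays. Of the 346 SNPs tested left of the rDNA, 115 were lower in HK at a Benjamini-Hochberg adjusted p under 0.05 (33.2%) and 0 were higher, with 216 at an unadjusted p under 0.05. The count was 65 without MD893-1 zygote 3 or without MD893-1 zygote 4, 74 without MD893-2 zygote 1 and 34 without HK10. Over the whole genome 15.3% of SNPs were called lower and 10.9% higher. At a homozygous SNP s falls because 1 allele is lost, and 79 of the 346 were homozygous in an HK isolate, of which 47 were called. The other 267 were heterozygous in all 4 HK isolates, and 68 of them were called lower (25.5%). Of the 267, 265 had a lower mean in HK, and the median difference was -0.19, against -0.04 over all SNPs. The 15.3% and the -0.04 include SNPs homozygous in HK isolates. Neither the share called nor the share with a lower mean was computed for heterozygous SNPs genome-wide.

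On the linear scale the retained rise was smaller than the loss. The mean of the S and Y ratios, taken to log2, was lower by 0.208 at the homozygous SNPs than at the heterozygous SNPs of the stretch in HK10 A, and lower by 0.236 in HK10 B. It was lower by 0.0298 in HK12 A and by 0.172 in HK12 B, over 7 and 8 SNPs. The retained allele read at less than 2 times its heterozygous level, at 1.46 to 1.74 times over the 8 readings of the 4 tracts.

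The crosses did not overlap in signal level, but the design could not test the difference. The median s was -0.009, -0.016, 0.004 and -0.001 in MD893-1 zygotes 1 to 4 and -0.017 and -0.023 in MD893-2 zygotes 1 and 2. The means were -0.006 ± 0.009 (SD, n = 4) and -0.02 ± 0.004 (SD, n = 2), a difference of 0.01. The exact two-sided permutation p was 0.133, the smallest that the 15 ways to divide 6 zygotes allow. Over the SNPs measured on all arrays the difference was 0.0121 with p = 0.4 by the same exact permutation test. Both crosses had 0 homozygous SNPs left of the rDNA.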

How the data were processed

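Per the labels, the arrays compared isolate DNA (Cy5) with JSC24 DNA (Cy3). The authors deposited 1 linear ratio per probe and array, scaled to a mean of 1 in the deposited values. The sources used here state no background correction, feature filter or genome build. Each column was tied to its isolate by the source name, and groups follow the titles. The members and lists were chosen with earlier results of these data known.

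The median log2 ratio of every array was set to 0, and up to 4 probes per SNP gave d and s. No loess or quantile step was applied. A hidden Markov model per chromosome used Student t emissions (4 degrees of freedom) centred at 0, 3 and -3. The homozygous scale was 0.8, the heterozygous scale was each array's own noise with a floor of 0.1, and the switch probability was 0.0001. Tracts needed 5 SNPs, and stretch lengths run to the midpoints between SNPs. The model and the limma fit were run on simulated data. The planted tracts lay near the model's own centre and scale, and the planted shift in s was larger than the median differences found here. Recovery of weaker tracts or smaller shifts was not tested. Named were all tracts of at least 5 SNPs, the SNPs at each switch and beside the rDNA, and SNPs off 0 on every array that measured them. The SNPs at 40555, 352604, 309726 and 39569 and the probe values were chosen after their values were seen. Tests were exact permutation tests over arrays (scipy 1.17.1) and limma 3.58.1 in R 4.3.3. Leaving out an HK name and the signal level over the jointly heterozygous stretch were added after seeing the data. The number of arrays limits the precision.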

Additional observations from a re-analysis of the deposited data

How the results depend on the processing

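The tract calls were the same with a minimum of 3 SNPs, a switch probability 100 times lower and the median of probes. With a minimum of 10 SNPs, 4 of the 8 tracts were called, since both Y runs near the left end have fewer SNPs. The LOH difference was then 9.42 (exact permutation p = 0.267 over isolates and 0.5 over names), and it was 2.01 without HK10 and 21.2 without HK12. The signal level difference was -0.19 without HK10 and -0.18 without HK12. With 2 isolates left against 6, no exact p under 0.0714 is possible. The slope difference lost its call without SNPs within 30 kb of the left end (0.0144), over the jointly heterozygous stretch (0.00898), with the Theil-Sen slope (0.0143), without HK10 (0.00649) and without HK12 (0.0259), and the cause was not tested. Leaving out 1 isolate gave slope differences from 0.0129 to 0.0201, and the call was lost without HK10 A or HK10 B. The count of SNPs with lower s was 208 with 4 HK isolates as separate replicates and 34 without HK10. Leaving out 1 array gave 65 to 137, with 65 without MD893-1 zygote 3 or 4 and 74 without MD893-2 zygote 1. With zygotes 1 and 2 paired by number (replicate block), the cross difference was 0.00711, and the labels do not say that a number pairs zygotes. Deviations from the cross means correlated at 0.19 for zygotes numbered 1 and -0.08 for zygotes numbered 2 over 350 SNPs. With 2 zygotes in a cross their deviations are mirror images, so these values say little about pairing. The median and the mean of probes are equal by construction, since an allele has at most 2 probes. SNP spacing limits how finely a switch can be placed, and each isolate had 1 array.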
